A study of Homo sapiens with 2 samples.

Results

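Neuropeptide precursor genes were followed through enteric neural crest differentiation. The 6 genes SST, CCK, TAC1, GAL, NPY and PENK were selected because their levels in these same libraries were known to differ between cell types, so their pattern over cell types and stages is a description and carries no test. They are 6 of the 33694 genes counted in both libraries. Droplet 3′ RNA sequencing was performed on derivatives of H9, an established line of human embryonic stem cells. The D10 library came from an adherent culture on Geltrex, induced in Essential 6 medium with BMP4, SB431542 and CHIR 99021 and then with SB431542, CHIR 99021 and retinoic acid. The D15 library came from free-floating enteric crestospheres, formed by lifting that kind of monolayer into neurobasal medium with FGF2, CHIR 99021, N2, B27, glutagro and NEAAs. There was 1 library per stage, and each pooled 2 biological repeats that could not be separated. Stage, culture format, medium and library therefore cannot be told apart, and no difference below has a replicate check.

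A neuropeptide is made as a longer precursor, which is cut by convertases, trimmed by carboxypeptidase, and stored in dense-core granules until the cell is stimulated. SST encodes somatostatin, an inhibitory peptide of sensory neurons, enteric neurons, cortical interneurons and pancreatic delta cells. CCK encodes cholecystokinin, a gut hormone and brain peptide, and TAC1 encodes substance P and neurokinin A, transmitters of nociceptive sensory and excitatory enteric neurons. GAL encodes galanin, NPY neuropeptide Y and PENK the enkephalins. Cranial placodes, marked by EYA genes among others, are ectodermal thickenings that give rise to sensory neurons of the head, and neural crest cells give rise to enteric neurons and glia.

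Sequence before the RefSeq start (GRCh38.p14) is shown for SST, which had the highest level of the 6, and for CCK and TAC1, whose highest levels lay in other cell types. Each run holds the 250 bases before the start, read 5′ to 3′ on the strand of the gene. Capitals mark matches, on either strand, to TGACGTCA (the cAMP response element), CANNTG (the E-box) and TATAAA, and adjoining or overlapping matches run together.
SST, chr3:187670395-187670644, minus strand: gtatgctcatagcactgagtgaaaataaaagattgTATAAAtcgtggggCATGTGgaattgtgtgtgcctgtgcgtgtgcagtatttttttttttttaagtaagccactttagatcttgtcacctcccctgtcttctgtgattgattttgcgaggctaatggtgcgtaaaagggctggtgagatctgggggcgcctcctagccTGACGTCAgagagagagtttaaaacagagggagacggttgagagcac
CCK, chr3:42263948-42264197, minus strand: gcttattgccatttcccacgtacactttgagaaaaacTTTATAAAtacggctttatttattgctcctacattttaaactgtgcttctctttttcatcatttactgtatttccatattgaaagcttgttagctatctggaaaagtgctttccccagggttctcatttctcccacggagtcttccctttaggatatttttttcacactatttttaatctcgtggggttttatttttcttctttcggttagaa
TAC1, chr7:97731836-97732085, plus strand: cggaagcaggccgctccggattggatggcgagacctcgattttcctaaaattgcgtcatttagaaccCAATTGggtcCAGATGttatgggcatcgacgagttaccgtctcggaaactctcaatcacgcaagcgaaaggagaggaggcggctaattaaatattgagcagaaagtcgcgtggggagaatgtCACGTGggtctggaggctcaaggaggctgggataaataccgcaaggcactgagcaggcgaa
The SST run held 1 TGACGTCA, beginning 47 bases before the start, and 1.65% of 35116 promoters of this length held such a match. The CCK and TAC1 runs held 0. CANNTG, found in 61.8% of promoters, had 1 match before SST, 3 before TAC1 and 0 before this CCK start. TATAAA, found in 10.7% of promoters, had 1 match before SST, beginning 215 bases upstream, and 2 overlapping matches on opposite strands before this CCK start. A second RefSeq start of CCK, with its window at chr3:42266186-42266435, had 2 CANNTG matches, 0 of TATAAA and 0 of TGACGTCA. These matches are letters in a window and say nothing of whether a factor was bound. On GRCh38, SST spans chr3:187668906-187670399, TAC1 chr7:97731908-97740472, NPY chr7:24284163-24291865 and GAL chr11:68683779-68691175, and these 4 overlap no other annotated gene. CCK, at chr3:42257825-42266207, and PENK each overlap 1 antisense gene, and since the strand setting of the counting is not stated, their counts could include it.

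Sequencing gave 70488169 unique molecular identifiers (UMIs) in 9627 cells at D10 and 84976253 in 6320 cells at D15, with medians of 6713 and 11770.5 UMIs per cell. The deposited annotation named 4 cell types at D10, which were enteric neural crest cells (ENCCs, 4921 cells), neuro-epithelial progenitors (NEP, 1811), cranial placode (CP, 324) and non-neural ectoderm (NNE, 239). At D15 it named ENCCs (4934), NEP (104), mesenchyme (Mes, 47) and the placode clusters CP1 (208) and CP2 (43). It marked 2332 cells at D10 and 984 at D15 as removed for quality. The 4 placode markers summed to 122 CPM (counts scaled to a fixed total per class) in CP and 404 CPM in CP1, against 5.76 and 4.21 CPM in the ENCCs of the same libraries. In CP2 they summed to 84.6 CPM, SIX4 was at 0 and EYA2 at 4.98 CPM, while PAX6, a NEP marker, was at 381 CPM, so CP2 is used here as the name of a cluster only. D10 CP also carried 766 CPM of the 5 ENCC markers, against 1608 CPM in D10 ENCC and 496 CPM in D10 NNE. The highest single marker made up 610, 1365 and 400 CPM of these sums. In CP2 the 5 ENCC markers summed to 413 CPM, with TFAP2A at 348 CPM and SOX10 and FOXD3 at 0. The D15 NEP cluster carried 585 CPM of the 4 epithelial markers listed for NNE, against 815 CPM in D10 NEP and 3718 CPM in D10 NNE. The libraries shared 102 cell barcodes (1.06% of the D10 and 1.61% of the D15 cells).

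CPM is the UMIs of a gene summed over the cells of a class, scaled to 1e6 UMIs of those cells, with exact 95% Poisson intervals in brackets. Reads come from transcript 3′ ends, so CPM was not divided by gene length, and orders are given between cell types for 1 gene rather than between genes. Shares of cells carry exact 95% Clopper-Pearson intervals. These intervals and the limit of 3 UMIs that a count of 0 allows cover counting error only. More cells that express a gene and more RNA per cell were told apart only where counts per cell are given.

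SST had its highest level in CP1 at D15. There 18769 UMIs gave 7858 CPM (7746 to 7971), and the gene was detected in 206 of 208 cells. CP2 followed at 2868 CPM (2705 to 3039). D10 CP held 122 CPM (108 to 136), from 305 UMIs. The D15 ENCC, NEP and Mes classes lay close together at 56.8 (54.8 to 58.8), 55.8 (43.0 to 71.2) and 49.9 CPM (33.2 to 72.2), and these 3 intervals overlapped. The D10 NNE, NEP and ENCC classes held 2.71 (0.879 to 6.32), 0.285 (0.0776 to 0.730) and 0.135 CPM (0.0439 to 0.316), from 5, 4 and 5 UMIs. CP at D10 and CP1 and CP2 at D15 were thus above the other classes of their library. The CPM of the ENCC and NEP classes was higher at D15 than at D10. As set out below, no expression was read from the low D15 counts of NEP and the numbered ENCC subclusters.

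**Figure D1:**
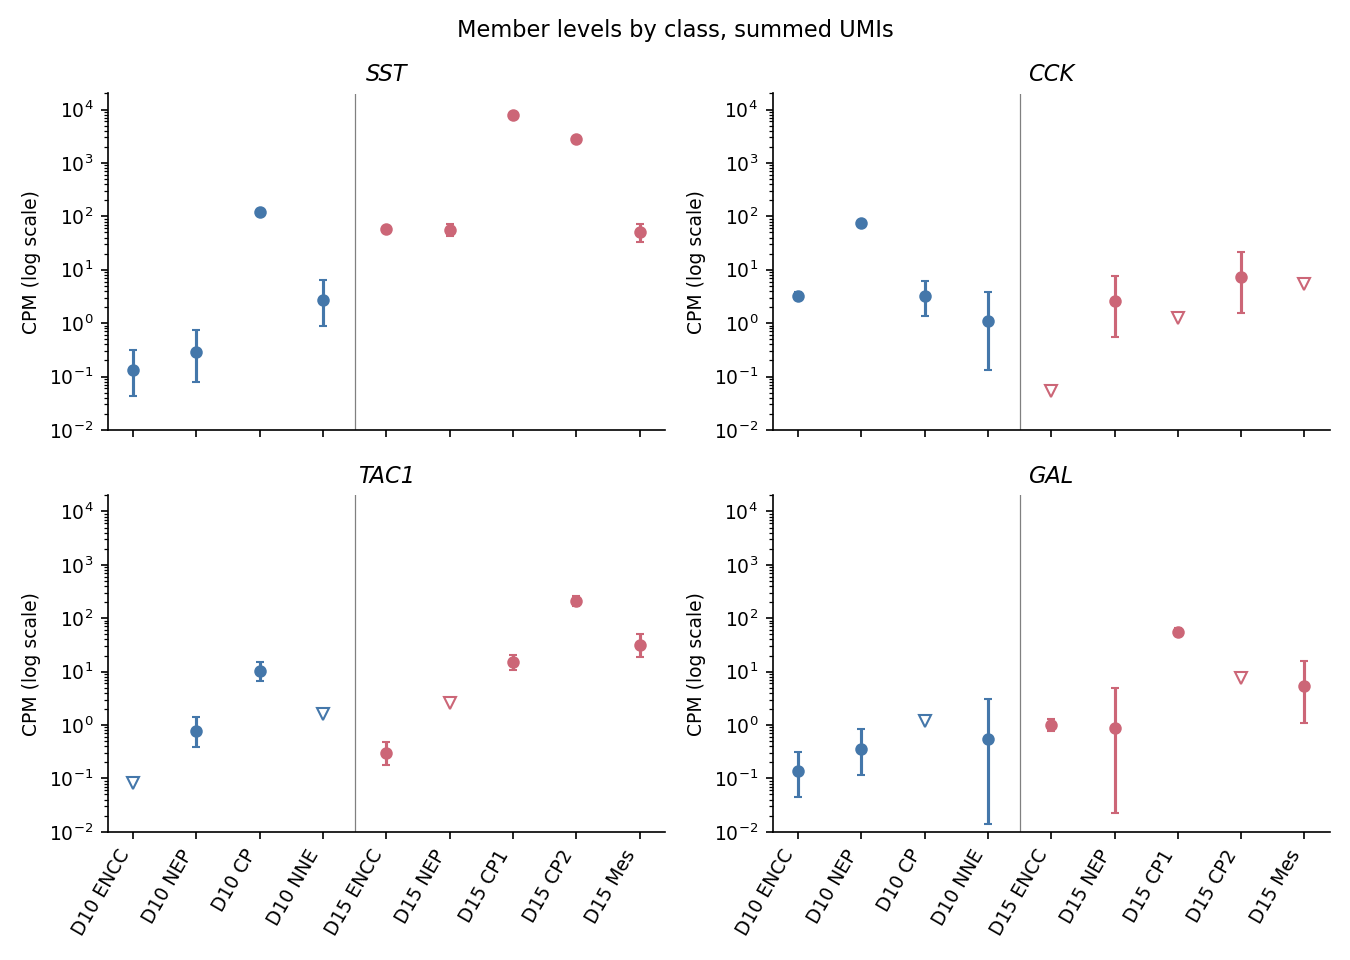
CPM of SST, CCK, TAC1 and GAL (log axis) in the 4 D10 classes (blue) and the 5 D15 classes (red), 1 library per stage. Points are summed UMIs with 95% Poisson intervals, and open triangles stand at the limit of 3 UMIs for classes with 0 UMIs; SST peaks in CP1 at 7858 CPM, CCK in D10 NEP at 74.7 CPM, TAC1 in CP2 at 211 CPM and GAL in CP1 at 56.1 CPM.

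The counts per cell separated CP, CP1 and CP2 further. In CP1 the median cell held 76 SST UMIs, the quartiles were 50 and 119, the highest cell had 292, and 202 of 208 cells had 10 or more. The tenth of CP1 cells with the most SST held 23.9% of its UMIs, so the level was spread over the cluster. When CP1 was divided by depth into 4 groups of 52 cells, SST lay between 7505 and 8197 CPM in each. In CP2 the median was 7 UMIs, 9 of 43 cells had 0, and the 2 highest cells had 209 and 201 UMIs. In D10 CP, SST was held by few cells. Only 24 of 324 cells had a UMI, 8 cells had 10 or more, and 1 cell held 132 of the 305 UMIs (43.3%). Without the cells at 10 UMIs or more, the level in D10 CP was 21.2 CPM.

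**Figure D2:**
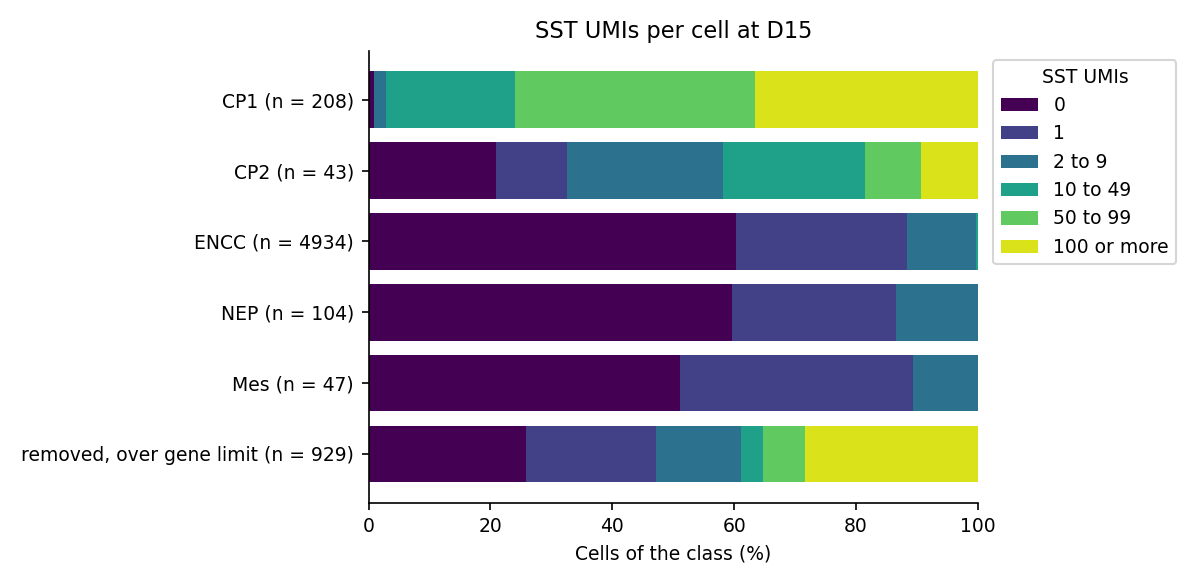
Share of the cells of each D15 class (horizontal axis, percent) with 0, 1, 2 to 9, 10 to 49, 50 to 99 or 100 or more SST UMIs, with the removed cells over the gene limit as the last bar. Of CP1 cells, 36.5% had 100 or more SST UMIs, while 60.4% of ENCCs had 0 and 28.1% had 1.

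Phase calls in the deposited annotation divided CP1 into 164 G1, 8 S and 36 G2M cells. SST was at 8579 CPM (8447 to 8713) in G1, 6970 CPM (6471 to 7497) in S and 4921 CPM (4713 to 5137) in G2M. These intervals did not overlap, but they leave out the spread between cells. Per CP1 cell, SST UMIs had a mean of 90.2 and a variance of 3385, wider than counting error alone. A difference between phases was therefore not tested. Across the 208 CP1 cells, the genes whose log2(CPM + 100) was most like that of SST were STMN2 (Pearson r = 0.48), TMSB4X (0.45), RGS10 (0.42), MLLT11 (0.42), CKB (0.42) and SNCG (0.41), among 7311 genes. STMN2 encodes a tubulin-binding protein of growing axons and SNCG a neuronal synuclein. The lowest values were for UBE2C (-0.31) and CKS1B (-0.30), which act in cell division. NEUROD1, a transcription factor of sensory neuroblasts, had r = 0.01 with SST, and ISL1 had 0.19. All these cells came from 1 library, and r between SST and log2 depth was 0.06. Over the 9 classes of both libraries, the profiles most like SST were those of RALGDS (r = 0.99), MANEAL (0.97), CRNKL1 (0.96), PNMA2 (0.96), LARP1B (0.96) and RP11-247C2.2 (0.95), among 7603 genes. Only 9 points from 2 libraries enter these values.

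Low SST counts outside CP1 and CP2 were compared with those of other genes. SST in ENCCs stood at 0.723% (0.698 to 0.748) of its CP1 level. For comparison, 30 genes with at least 100 CPM in CP1 and the largest ratios of CP1 over ENCC, a choice that favours low levels in ENCC, had a median of 1.09% in ENCC and a range from 0.665% to 2.48%. SST was below 29 of these 30 genes. A comparison chosen after seeing the data took the 15 neuronal genes at 100 CPM or more in CP1 without regard to ENCC, and they had a median of 1.09% and a lowest value of 0.725%. NEUROD1 and STMN2 stood at 0.805% and 0.924% of their CP1 levels in ENCC. SST in NEP and Mes was at 0.710% (0.547 to 0.907) and 0.635% (0.422 to 0.918) of CP1. The reference genes were less uniform in NEP, with a median of 2.89% and a range from 0 to 88.2%, and had a median of 0.695% in Mes. Free RNA was not measured, and no expression of SST was read from the low counts of NEP, Mes and the numbered ENCC subclusters.

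**Figure D3:**
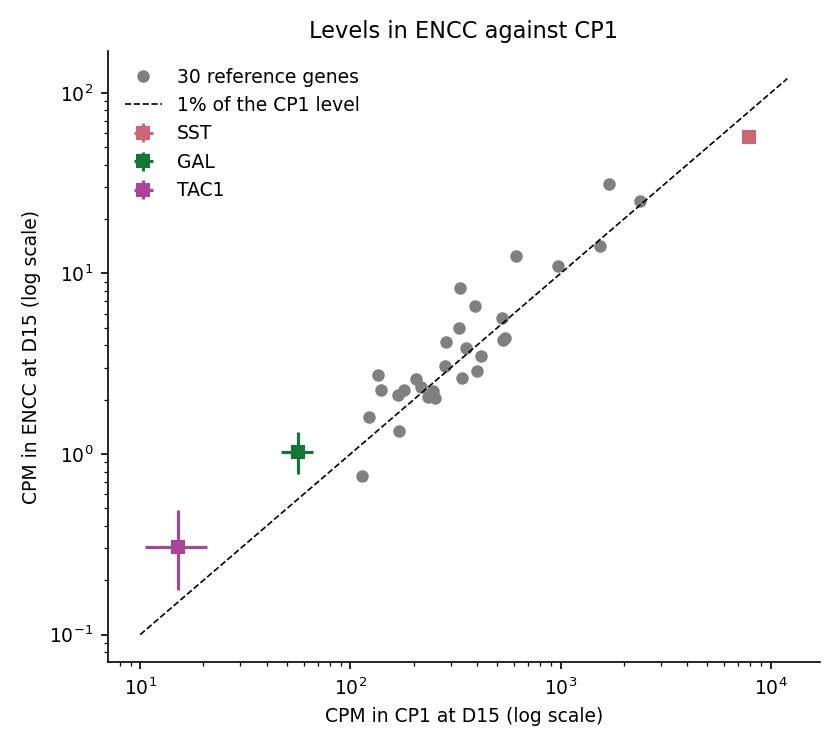
CPM in ENCC against CPM in CP1 at D15 (both log axes) for 30 reference genes (grey) and for SST, TAC1 and GAL with 95% Poisson intervals, with a dashed line at 1% of the CP1 level. SST, at 56.8 against 7858 CPM, lies just under the line, and GAL, at 1.02 against 56.1 CPM, lies above it.

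The share of D15 ENCCs with an SST UMI was 39.6% (38.3 to 41.0) at full depth, with a median of 11082 UMIs per cell. In NEP, which had a median of 10953.5 UMIs, it was 40.4% (30.9 to 50.5). After thinning to 3000 UMIs per cell, it was 14.0% (13.1 to 15.05) in ENCC, 11.5% (6.11 to 19.3) in NEP and 14.9% (6.20 to 28.3) in Mes. No D15 cell was left out by thinning. Most positive ENCCs held 1 UMI (1384 cells) or 2 (364 cells). The subclusters ENCC 1′, 2′, 3′ and 4′ had 57.8 (54.5 to 61.3), 47.7 (45.1 to 50.3), 47.0 (42.4 to 51.9) and 43.5 CPM (33.7 to 55.4). The intervals of ENCC 1′ and 2′ did not overlap, but they leave out the spread between cells, and a difference was not tested. Taken as one, the numbered subclusters stood at 0.648% (0.624 to 0.672) of CP1. The 27 ENCCs outside the numbered subclusters differed, with 1108 CPM (994 to 1232) and 344 of the 3172 ENCC UMIs. These 27 cells also carried 451 CPM of STMN2 and 90.2 CPM of NEUROD1, and whether they are doublets was not tested. The study's supplement gives high SYP as its reason for removing cells when the D15 ENCCs were subclustered. It does not state whether these 27 cells are the ones removed. In all, 16 ENCCs had 10 or more SST UMIs and held 11.0% of the SST in ENCC.

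CCK had its highest level in NEP at D10. There 1048 UMIs gave 74.7 CPM (70.2 to 79.3), and the gene was detected in 32.7% of NEP cells (30.5 to 34.9). After thinning to 3000 UMIs the share was 17.1% (15.4 to 19.0) in NEP and 0.691% (0.479 to 0.965) in ENCC, with median depths of 7227 and 7004 UMIs. ENCC stood at 3.27 CPM (2.72 to 3.91), CP at 3.19 CPM (1.38 to 6.29) and NNE at 1.08 CPM (0.131 to 3.91), and these 3 intervals overlapped. The highest NEP cell held 11 UMIs, and 361 NEP cells held 1 UMI, so CCK was spread at few UMIs per cell. By phase, CCK in NEP was at 99.4 CPM (87.4 to 113) in S, 76.6 CPM (71.1 to 82.5) in G1 and 39.4 CPM (31.6 to 48.5) in G2M.

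Of the 121 CCK UMIs in D10 ENCCs, 98 lay in the 256 ENCCs outside the numbered subclusters, which held 43.6 CPM (35.4 to 53.1). In those cells the NEP markers PAX6 and WNT2B were at 458 and 649 CPM, against 572 and 827 CPM in NEP. The study's supplement gives high placode gene levels as its reason for removing cells when the D10 ENCCs were subclustered. It does not state whether these 256 cells are the ones removed. The subclusters ENCC 1 to ENCC 4 held CCK between 0.445 and 0.863 CPM. ENCCs in subclusters stood at 0.888% (0.563 to 1.33) of the NEP level, near the low end of 30 NEP genes chosen in the same way, whose median there was 2.41% and whose range was 0.777% to 7.82%. No expression was read from those counts. Over the 9 classes, the profiles most like CCK were RP11-96L14.7 (r = 0.98), MAB21L2 (0.98), CLEC18C (0.97), TRPM3 (0.96), EHBP1 (0.95) and FILIP1 (0.95), each highest in D10 NEP. MAB21L2 is needed for eye development.

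At D15, CCK was nearly absent from the counts, with 7 UMIs in the library. CP2 and NEP had 3 UMIs each, which gave 7.46 (1.54 to 21.8) and 2.62 CPM (0.539 to 7.64). CP1 had 0 UMIs in 208 cells, which allows up to 1.26 CPM, and ENCC had 0 in 4934 cells, which allows up to 0.0537 CPM.

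TAC1 had its highest level in CP2. There 85 UMIs gave 211 CPM (169 to 261), and TAC1 was detected in 67.4% of the 43 cells (51.5 to 80.9), with a median of 2 UMIs and a highest cell of 10. In CP1 it stood at 15.1 CPM (10.6 to 20.9) and was detected in 22 of 208 cells. Mes held 32.1 CPM (19.0 to 50.7), from 18 UMIs in 11 of 47 cells. That was 15.2% of the CP2 level, above the range of 0 to 3.45% that 30 CP2 genes chosen in the same way showed in Mes. ENCC held 0.304 CPM (0.177 to 0.487), or 0.144% of CP2, with 1 UMI in each of 17 cells, and no expression was read from these. NEP had 0 UMIs, which allows 2.62 CPM. At D10, TAC1 lay in CP at 10.4 CPM (6.77 to 15.2), but 13 of its 26 UMIs came from 1 cell. In CP2 at full depth, 25 of the 29 cells with TAC1 and 9 of the 14 cells without it had SST. After thinning to 3000 UMIs per cell, 12 CP2 cells had both genes, 17 only SST, 6 only TAC1 and 8 neither. The higher share of SST in cells with TAC1 was thus not kept at equal depth. Within CP1, ADCYAP1, which encodes the peptide PACAP, was the gene most like TAC1 over cells (r = 0.39), and SST and TAC1 had r = 0.06. These are sparse counts and the values are a description.

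GAL had its highest level in CP1 and was not detected in CP2. CP1 held 56.1 CPM (47.0 to 66.4), from 134 UMIs, with a UMI in 31.7% of cells (25.5 to 38.5) and at most 8 in a cell. After thinning, the share was 12.0% (7.93 to 17.2) in CP1 and 0.365% (0.216 to 0.576) in ENCC. CP2 had 0 UMIs in 43 cells, which allows up to 7.46 CPM, so CP1 exceeded that limit. Within CP1, GAL was at 67.8 CPM (56.4 to 80.7) in G1 and 14.1 CPM (5.18 to 30.7) in G2M. ENCC held 1.02 CPM (0.773 to 1.32), which was 1.82% (1.38 to 2.36) of the CP1 level. That share lay above 26 of the 30 reference genes, inside their range, and its interval lay above that of the SST share. Whether ENCCs express GAL was not tested. Mes had 3 UMIs (9.54% of CP1, interval 1.97 to 27.9) and NEP 1. In the whole D10 library GAL had 16 UMIs, with 0 in CP, which allows 1.20 CPM.

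NPY and PENK were near the limit of detection. NPY had 7 UMIs in CP1, at 2.93 CPM (1.18 to 6.04), 1 UMI in ENCC at D15 and 1 UMI at D10. PENK had 14 UMIs in D10 NEP, at 0.997 CPM (0.545 to 1.67), and 5 UMIs in CP2, at 12.4 CPM (4.04 to 29.03). No direction was read from these counts.

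Over all deposited cells, SST was at 5.84 CPM (5.29 to 6.44) at D10 and 1134 CPM (1126 to 1141) at D15, and CCK at 26.6 (25.4 to 27.8) and 0.0824 CPM (0.0331 to 0.170). On the log2(CPM + 1) scale D15 over D10 was 7.37 for SST, the highest of the 9904 genes with at least 5 CPM in 1 library, and -4.67 for CCK, the thirteenth lowest. GAL was at 0.227 and 9.56 CPM, with a log2 ratio of 3.105. TAC1, at 0.738 and 3.62 CPM, NPY and PENK did not reach 5 CPM. Of the 9904 genes, 8.64% were at least 1 log2 unit higher and 8.71% at least 1 log2 unit lower at D15. SST and GAL were among the first and CCK among the second, and since the genes were selected on these levels nothing is read from that. The median gene stood at -0.15 log2 units.

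Most of the D15 SST lay in cells that the authors removed. Removed cells made up 15.6% of the library and held 75.9% of its SST UMIs, 76.0% of its GAL UMIs and 49.4% of its TAC1 UMIs. Of the 73146 SST UMIs in removed cells, 73120 lay in the 929 cells with 3500 or more detected genes. Of these, 361 cells had 10 or more SST UMIs, with a median of 166 and a highest cell of 1255. They had a median of 26629 UMIs and 4623 genes per cell, against 11734.5 and 2970.5 in CP1. They held SST at 6284 CPM, a level that their choice at 10 or more SST UMIs favours. These 361 cells also carried 474 CPM of NEUROD1, 362 CPM of POU4F1 and 1237 CPM of STMN2. CP1 had 530, 282 and 1543 CPM of these 3 genes, and ENCC 4.26, 3.06 and 14.3 CPM. GAL was at 52.3 CPM (48.2 to 56.6) in them and TAC1 at 9.78 CPM (8.06 to 11.8), beside 56.1 and 15.1 CPM in CP1. Their 5 ENCC markers summed to 172 CPM, above the 93.4 CPM in CP1 and below the 964 CPM in ENCC, and whether some hold RNA of an ENCC was not tested. With kept cells only, the log2 ratio of D15 over D10 was 5.83 for SST and 1.82 for GAL.

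**Figure D4:**
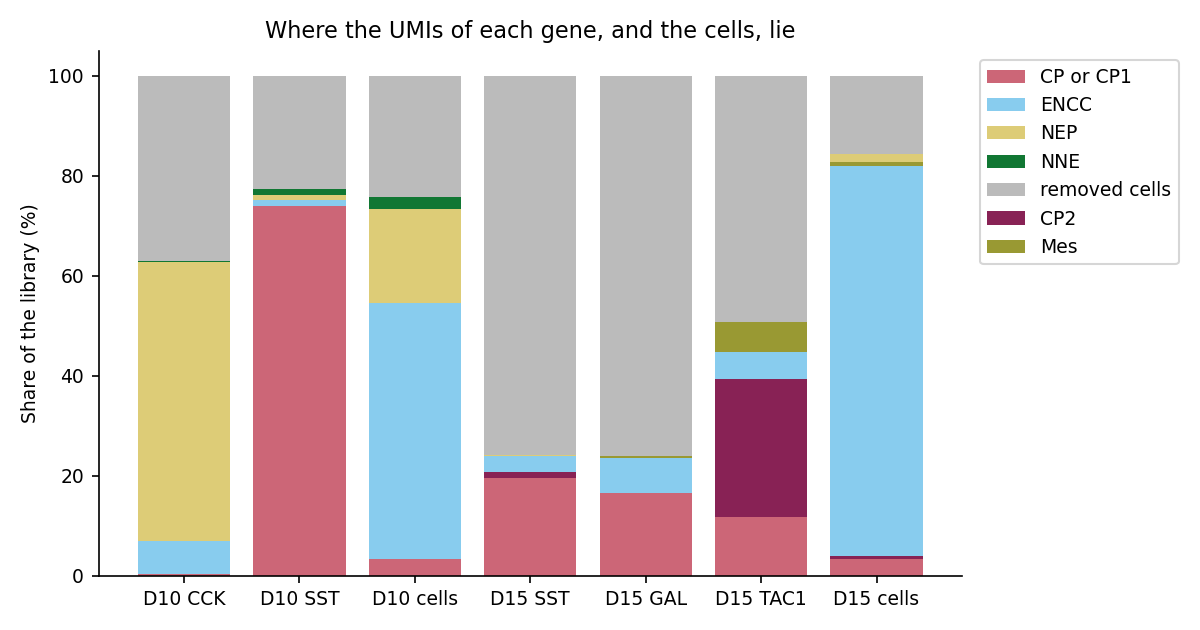
Share of the UMIs of CCK, SST, GAL and TAC1 (vertical axis, percent of the library) that each class holds, with the share of cells beside them. At D15 the removed cells (grey) make up 15.6% of cells and hold 75.9% of SST and 76.0% of GAL UMIs, and at D10 NEP holds 55.9% of CCK and CP holds 74.0% of SST.

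At D10 the removed cells made up 24.2% of the library and held 22.6% of SST and 37.1% of CCK UMIs. CCK was at 60.1 CPM (54.1 to 66.6) in the removed cells over the upper gene limit and 13.7 CPM (10.3 to 17.9) in those under the lower gene limit. Both groups were taken whatever their mitochondrial share. In the cells within both gene limits but over the mitochondrial limit it was 53.3 CPM (47.3 to 59.996).

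Genes of related function were taken as lists. Of 9959 genes with at least 5 CPM in CP1 or ENCC, 16.8% were at least 1 log2 unit higher in CP1, and the median gene stood at 0.22 log2 units. In the list of peptide processing and granule genes, 14 of the 17 that entered (of 22) were at least 1 log2 unit higher and 0 lower, with a median of 3.38. Among them were SCG2 (171 CPM in CP1 against 1.34 in ENCC) and SCG3 (201 against 6.98), granins and granule proteins, CPE (99.6 against 2.56), the carboxypeptidase that trims peptide precursors, and SYT4 (123 against 1.59), a vesicle protein. The pan-neuronal and sensory list had 26 of 26 higher, with NEFM at 2376 CPM in CP1 and 25.1 in ENCC. SST, TAC1 and GAL were the 3 of the 6 peptide genes that entered, all at least 1 log2 unit higher in CP1, which the selection fixes. Some of these list genes also served as comparison genes above.

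CP2 had more of the processing genes than CP1. Of 10476 genes with at least 5 CPM in either, 21.4% were at least 1 log2 unit higher in CP2 and 12.9% lower. Of 20 processing and granule genes, 11 were higher, 0 lower and 9 between, with a median of 1.46 log2 units against 0.22 over all genes. SCG5, a chaperone of the convertase PCSK2, was at 246 CPM in CP2 and 13.4 in CP1, PCSK2 itself at 112 and 26.0, CPE at 366 and 99.6, SYT4 at 532 and 123, and RAB3A at 361 and 191. SCG2 (226 and 171 CPM), CHGA (77.1 and 55.3) and CHGB (84.6 and 63.6) lay within 1 log2 unit. All 43 CP2 cells were called G1, against 164 of the 208 CP1 cells. Whether phase bears on the differences between CP2 and CP1 was not tested. Other precursors were also present. CALCB, a calcitonin gene-related peptide gene, was at 122 CPM (90.2 to 161) in CP2 and 53.6 CPM (44.7 to 63.7) in CP1, and ADCYAP1 at 79.6 (54.4 to 112) and 9.63 CPM (6.10 to 14.4). Of the 5 members that entered, 3 were at least 1 log2 unit higher in CP2 and 2 lower, the latter being SST and GAL. Of the 3 higher ones, TAC1 had 85 UMIs in CP2, while CCK and PENK had 3 and 5, and no direction was read for those 2 genes.

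**Figure D5:**
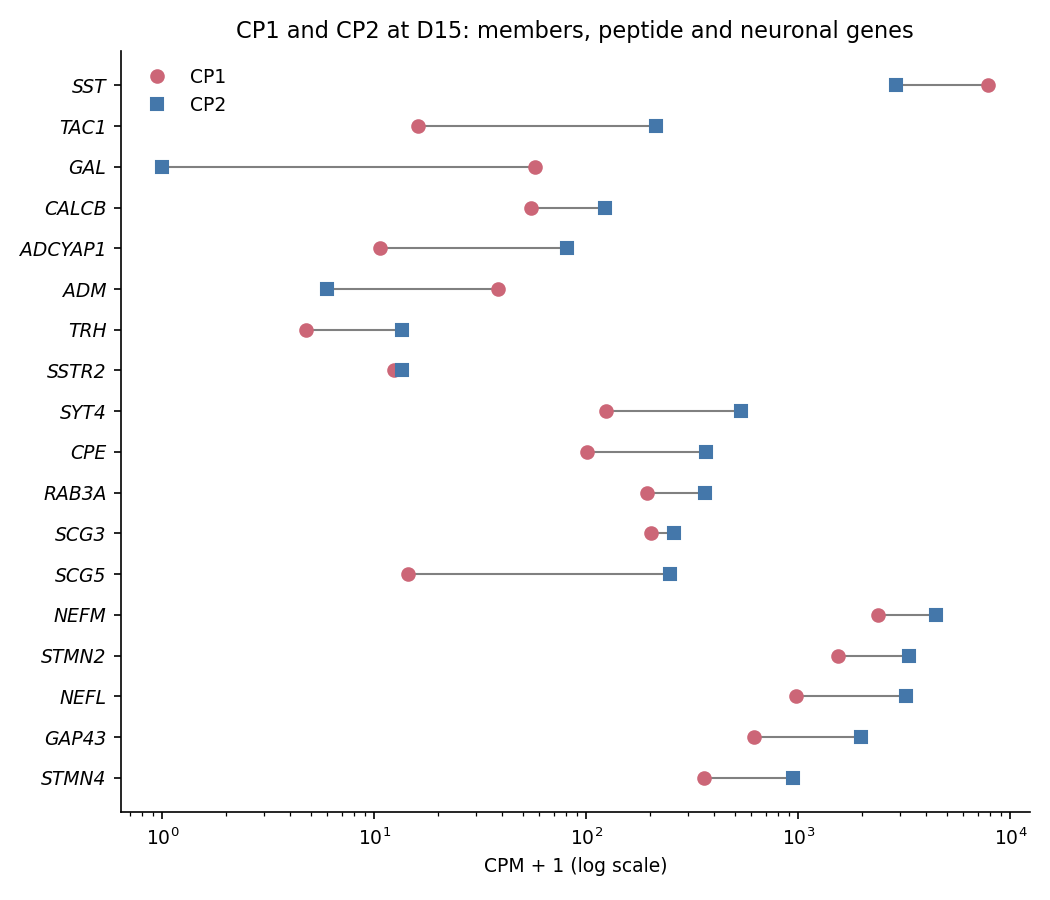
CPM + 1 (log axis) in CP1 (red circles) and CP2 (blue squares) at D15 for SST, TAC1, GAL and the named genes of 4 lists. SST and GAL lie further right in CP1, GAL being at 0 in CP2, while TAC1, SCG5 and NEFM lie further right in CP2.

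CP2 over ENCC had 34% of 10439 genes at least 1 log2 unit higher, and 18 of 20 processing genes. CP2 held 43 cells and 401995 UMIs, so its floor of 3 UMIs was 7.46 CPM. At D10, 6.33% of 9346 genes were at least 1 log2 unit higher in CP than in ENCC, beside 9 of 13 processing genes and 25 of 25 neuronal genes. NEP over ENCC had 14% of 9915 genes higher, beside 6 of 11 processing genes and 6 of 6 other precursors. Those included ADM, which encodes adrenomedullin, at 77.7 CPM in NEP and 4.28 in ENCC, and TRH, the thyrotropin-releasing hormone precursor, at 27.6 and 1.33 CPM.

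Of 20 receptor genes for the 6 peptides, 1 entered each comparison with ENCC and was at least 1 log2 unit higher there, SSTR2 in D10 CP, CP1 and CP2 and CCKBR in D10 NEP. SSTR2, a somatostatin receptor, was at 62.6 CPM in D10 CP, 11.3 CPM (7.45 to 16.4) in CP1 and 12.4 CPM (4.04 to 29.03) in CP2, and at 1.76 and 0.842 CPM in the D10 and D15 ENCCs. Across the libraries, the class with most SST, D15 CP1, was thus not the class with most SSTR2, D10 CP. Within the D10 library, CP had the most of both genes. At D15 the SSTR2 intervals of CP1 and CP2 overlapped. CCKBR, a cholecystokinin receptor, was highest in D10 NNE at 35.7 CPM, against 14.7 CPM in NEP. NPY1R and OPRD1 did not exceed 3.42 CPM with 10 or more UMIs in any class. Among relatives of the 6 genes, TAC3 was at 34.7 CPM in D10 NNE, GALP, which encodes a galanin-like peptide, at 32.3 CPM in D10 CP and 0 in every D15 class, and PDYN at 4.09 CPM in D10 ENCC.

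Markers of other cells known for SST were low in CP1. GAD1 and GAD2, which make GABA in cortical interneurons, had 0 UMIs in CP1 and CP2, and the list had 0 genes higher and 2 lower in CP1 than in ENCC, the lower ones being DLX1 (0.837 against 24.5 CPM) and DLX2 (1.67 against 17.1). Among enteric lineage genes, PHOX2A was at 0 CPM in CP1 and 44.8 CPM in CP2, TLX2 at 24.7 and 9.95 CPM, and NOS1 at 0 in both. Of the 9 genes in this list, 4 entered the comparison of CP2 with CP1. Of these, 3 were at least 1 log2 unit higher in CP2 and 1 lower, beside 21.4% and 12.9% of all genes. Against ENCC, 4 of 4 were higher in CP2, beside 34% of all genes, and 1 of 1 in CP1, beside 16.8%. In D10 CP, NEUROG1, a sensory neurogenesis factor, was at 362 CPM.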

How the data were processed

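The 2 droplet libraries (Chromium 3′ v3.1) were deposited by the authors as raw counts of UMIs per gene and cell, whole numbers without normalization. The deposited metadata give the percent of mitochondrial and ribosomal UMIs, the cell type, subcluster and phase. The study's methods name kallisto and bustools, and the submitters' processing notes name Cell Ranger, Seurat 4.0.4 and GRCh38; the annotation version is not given in the sources used here. Clusters came from the authors, and cells over or under their gene, UMI and mitochondrial limits were marked but not deleted. No doublet caller was run.

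UMIs were summed per class in Python 3.11.15 (SciPy 1.17.1) with exact 95% intervals, cells were thinned to 3000 UMIs, and TMM factors came from edgeR 4.0.16. With 1 library per stage no test was run. A gene entered a ratio at 5 CPM in 1 class or library. Up to 5 genes per list were named, those with the highest CPM from at least 10 UMIs, with the 6 genes most like each member. Other named genes were chosen after their values were seen. Scripts were tested on simulated data. The members and lists were chosen with earlier results of these data known. Some genes of the lists are not reported here.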

Additional observations from a re-analysis of the deposited data

Results flagged for a closer look

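Cells that the study left out of every class were looked at because they hold signal outside the annotated classes. Above the limit of 3 UMIs, the D15 removed cells held SST at 2970 CPM, GAL at 25.1 CPM, TAC1 at 6.17 CPM and NPY at 1.26 CPM. The D10 removed cells held CCK at 45.9 CPM, SST at 6.14 CPM and TAC1 at 0.990 CPM. The intervals cover counting error only, and no replicate was available.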

How the results depend on the processing

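No paired analysis was possible because each stage has 1 library. Of 76 alternative values over 24 results, 30 moved by less than counting error or within 1.5 times, 46 moved by more and 0 turned direction. Without mitochondrial and ribosomal protein genes in the total, SST was at 220 CPM in D10 CP, 11971 in CP1, 3706 in CP2 and 108 in D15 ENCC, CCK at 126 in D10 NEP, TAC1 at 18.8 in D10 CP, 273 in CP2 and 55.8 in Mes, and GAL at 85.5 in CP1. As a mean of per-cell CPM, SST and TAC1 in D10 CP were 161 and 17.2. Without the tenth of cells with most UMIs, SST was 146 in D10 CP and 2475 in CP2. Without the 1% of cells with most of the gene, SST was 48.7 in D10 CP, 7718 in CP1, 2411 in CP2 and 47.4 in D15 ENCC, CCK 66.6 in D10 NEP and TAC1 2.01 in D10 CP. Shares of cells were taken at 2 or more UMIs after thinning to 3000 UMIs. They were also taken at 1 or more UMIs, with thinning to 5000 UMIs and unthinned. In that order they were 2.41%, 21.1% and 39.6% for SST in D15 ENCC. For CCK in D10 NEP they were 3.89%, 25.6% and 32.7%, and for GAL in CP1 2.88%, 17.3% and 31.7%. TAC1 in CP2 had 14.0% at 2 or more UMIs after thinning to 3000 UMIs, and 67.4% at 1 or more unthinned. Unthinned shares at 2 or more UMIs were 11.6% for SST in D15 ENCC and 12.8% for CCK in D10 NEP. They were 13.5% for GAL in CP1 and 51.2% for TAC1 in CP2. The log2 ratios of D15 over D10 with kept cells and with a pseudocount of 5 CPM were 5.83 and 6.71 for SST, -4.34 and -2.64 for CCK, 1.10 and 0.59 for TAC1, and 1.82 and 1.48 for GAL, and TMM scaling gave 7.55 for SST. The pseudocount of 5 left 550 genes higher and 496 lower, against 856 and 863, and no filter gave 1379 lower. Without ENCCs outside the subclusters, SST and CCK in ENCC were 0.648% and 0.888% of their main class, and the NEP comparison genes had a median of 2.41%, or 5.83% when taken from 20 CPM. The comparison with neuronal genes was chosen after seeing the data. The causes of these moves were not tested.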
